A study of Nicotiana benthamiana with 9 samples.

Results

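The contrast between heat and wounding was taken over 6 of the 9 libraries of a leaf RNA sequencing study in Nicotiana benthamiana, a wild relative of tobacco, and the 3 mock libraries were used to place each difference. Every group used soil-grown plants aged 5 weeks. The 3 heat libraries came from plants held at 37 °C for 1 h. The 3 wound libraries came from plants whose leaves were cut with scissors before 1 h at 23 °C, and the 3 mock libraries from uncut plants that spent 1 h at 23 °C. The labels mention no cut for the heat plants and name no transgene or genotype, and the replicates are described as biological. Temperature and cutting both differ between the heat and wound plants, so the direct contrast alone cannot tell which of them moved a sequence.

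Heat stress in plants is sensed within minutes and activates heat shock transcription factors, which switch on chaperones that keep proteins folded, while many growth and photosynthesis transcripts decline. Cutting a leaf releases calcium, electrical and peptide signals and a burst of jasmonate, a hormone that relieves repressor proteins from defence genes such as protease inhibitors. Both responses are known to appear within the first hour.

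None of these genes can be pointed to in the deposited table. Each of its 56094 entries is a whole scaffold or contig of a genome assembly (names beginning with Niben101), 0 of them carry a gene identifier, and neither an assembly nor its annotation was used in this work, so no sequence letters or gene names are given. A count covers all reads (or pairs) that fell on that sequence, and a long scaffold can pool many genes that moved in different directions. Nicotiana benthamiana is an allotetraploid with many near-identical gene copies, and the sources used here do not say how reads matching several places were treated, so values of such copies are uncertain. The leaf label could not be checked against marker genes. In bulk leaf RNA, fewer cells of a type and less RNA per cell cannot be told apart.

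Heat libraries held 13846165 to 17480792 counts and wound libraries 14517149 to 15471362. After a low-count filter 9645 sequences were tested, 8275 scaffolds and 1370 contigs, which held at least 99.9402% of each library. Correlations of log2(CPM + 1) across sequences, where CPM is the count per 1000000 of the TMM-scaled library size, were 0.916 to 0.929 between heat and wound libraries. They were 0.986 to 0.992 within heat and 0.992 within wound, given as a description since sequences of a library are not independent. Among the 6 libraries the first principal component, with 85.2% of the variance, put heat at -49.6 to -41.5 and wounding at 45.7 to 47.7. The next component (5.94%) set heat replicate 2 (-24.0) apart from heat replicates 1 and 3 (7.17 and 14.96).

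Leaves after heat and leaves after wounding differed at 2-fold or more in 22.5% of the tested sequences. At an adjusted p under 0.05 (edgeR, quasi-likelihood, Benjamini-Hochberg), 4988 of the 9645 were called (51.7%), of which 2573 were higher after heat than after wounding (26.7%) and 2415 were lower (25%) (percentages of all tested). With a fitted difference of at least 2-fold, 1237 were higher (12.8%) and 937 lower (9.71%), and these 2174 sequences are described below. All 3 heat libraries lay above all 3 wound libraries for 1219 of the 1237 and below them for 918 of the 937, where 30.2% and 29.9% of all tested sequences were separated that way. A test against 2-fold itself (glmTreat in edgeR) called 787 higher (8.16%) and 416 lower (4.31%). At the other end, 2610 sequences (27.1%) had a 95% interval of the difference that lay wholly within 1.5-fold in either direction. Scaling shifted the balance between the directions. With upper-quartile factors 41.5% were higher among all called, against 51.6% with TMM, and moved the median log2 difference over all sequences from -0.02 to -0.14. Deposited TPM values tested with limma gave 62.2% higher with a pseudocount of 1 and 61.8% with a pseudocount of 0.1, where the median was 0.07 and 0.10 in log2. Among sequences called at 2-fold the majority turned with upper-quartile factors, to 1088 higher against 1139 lower.

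**Figure D1:**
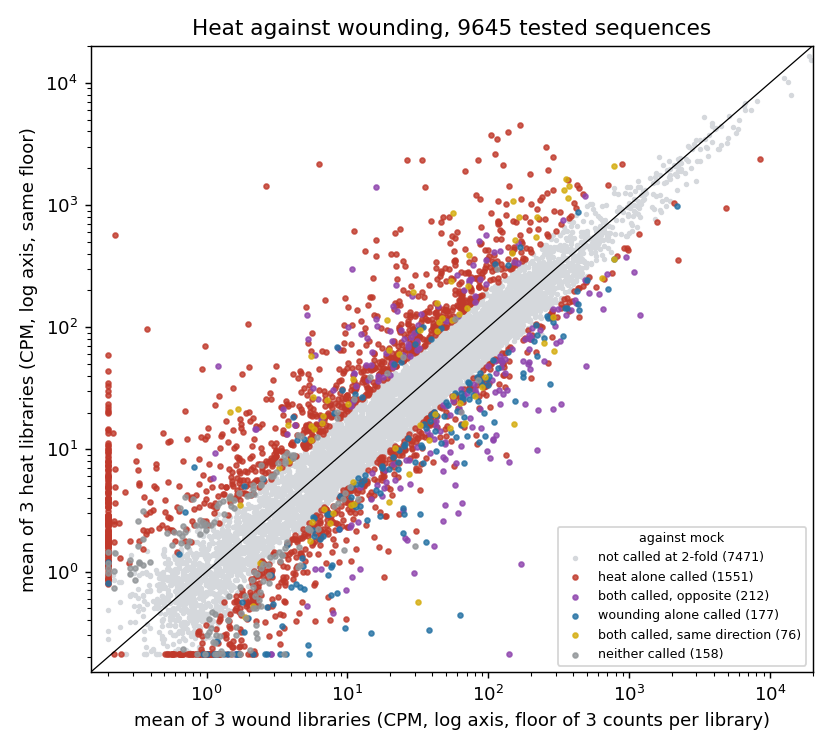
Mean level of each of the 9645 tested sequences in 3 wound libraries (x axis) and 3 heat libraries (y axis), both in CPM on log axes, with means under the floor of 3 counts per library drawn at the floor. Coloured points are the 2174 sequences called at 2-fold or more, by which treatment was called against mock; the far upper left holds mostly sequences where heat alone was called (1551 in both directions).

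Heat was the treatment that moved away from mock for most of these sequences, and more so among those higher after heat. A sequence was put down to heat alone where heat differed from mock in the direction that made the difference and wounding was not called, and to wounding alone in the mirror case. Heat alone was called for 1001 of the 1237 sequences higher after heat (80.9%), wounding alone for 27 (2.18%), both in opposite directions for 81 (6.55%), both in the same direction for 44 (3.56%) and neither for 84 (6.79%). Among the 937 lower after heat, heat alone was called for 550 (58.7%), wounding alone for 150 (16.01%), both in opposite directions for 131 (13.98%), both in the same direction for 32 (3.42%) and neither for 74 (7.90%). Over all tested sequences heat was called higher than mock for 27.4% and lower for 22.8%, and wounding higher for 9.86% and lower for 5.02%. At 2-fold or more these shares were 12.8% and 8.58% for heat and 3.61% and 0.954% for wounding. The direct contrast and both contrasts with mock share libraries, so a sequence picked for a large difference is likely to be called against mock as well. The counts by treatment are therefore descriptive, and a missing call does not mean that a treatment left a sequence unchanged.

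The ranges of the 3 libraries of each group were also compared, over the same sequences chosen by the direct test. Of the 1237 sequences higher after heat, 799 (64.6%) had heat libraries beyond all mock and wound libraries while mock and wound overlapped, and 61 (4.93%) had wound libraries apart from mock and heat, which overlapped. Of the 937 lower after heat, these counts were 418 (44.6%) and 153 (16.3%). Over all tested sequences, heat libraries stood apart in this way for 29.1% and wound libraries for 8.63%. In 316 (25.5%) of those higher after heat and 310 (33.1%) of those lower, no 2 of the 3 groups overlapped, as in 15.2% of all tested sequences.

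The order heat above mock above wound, with no overlap among the 9 libraries, was found for 211 of the 1237 (17.1%), and for 3.81% of all tested sequences. Its mirror image, wound above mock above heat, was found for 229 of the 937 (24.4%), and for 3.87% of all tested. Heat above wound above mock was found for 104 of the 1237 (8.41%), and for 3.29% of all tested. Mock above wound above heat was found for 65 of the 937 (6.94%), and for 3.19% of all tested. The order wound above heat above mock was found for 16 of the 937 (1.71%), and for 0.747% of all tested. Mock above heat above wound was found for 1 of the 1237, and for 0.311% of all tested. The 1237 and the 937 were chosen by direction, so shares above those of all tested sequences follow in part from that choice. All 3 heat libraries lay above all 3 wound libraries in 2909 tested sequences. Of these, 367 had heat above mock above wound and 317 heat above wound above mock. Of the 2882 with heat below wounding, 373 had wound above mock above heat and 308 mock above wound above heat.

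The share of sequences put down to heat alone grew with the size of the difference in one direction and shrank in the other. At 8-fold or more, 319 sequences were higher after heat (3.31%) and heat alone was called for 300 of them (94.0%). At 32-fold or more there were 163 (1.69%), of which heat alone was called for 160 (98.2%). Among those lower after heat, 123 reached 8-fold (1.28%), with heat alone for 57 (46.3%), wounding alone for 27 (22.0%) and both in opposite directions for 31. At 32-fold the 30 sequences (0.311%) split into 13 for heat alone (43.3%), 12 for wounding alone (40.0%), 3 for both in opposite directions, 1 for both in the same direction and 1 for neither. In all 20 other settings that gave these counts, the share put down to heat alone was larger at 8-fold than at 2-fold for sequences higher after heat and smaller for those lower. Fitted folds this large rest on the prior count where a group has no reads. That applied to 113 of the 163 without a wound count and 19 of the 30 without a heat count. Mock libraries had no count for 117 of the 319 higher sequences at 8-fold and for 111 of the 163 at 32-fold. Such a sequence could not fall after wounding, so neither wounding alone nor opposite calls were possible for it. Among those lower, 7 of the 123 and 5 of the 30 had no mock count and could not be put down to heat alone. A measurable fall after heat is also limited by the mock level above the floor, which does not limit a rise after wounding. The 550 put down to heat alone had a median mock level of 8.49 CPM, against a floor of 0.210 CPM in heat libraries. The other settings share this limit. With a filter of at least 10 CPM in 3 libraries, 121 higher and 42 lower sequences reached 8-fold, and heat alone was called for 88.4% and 16.7% of them.

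**Figure D2:**
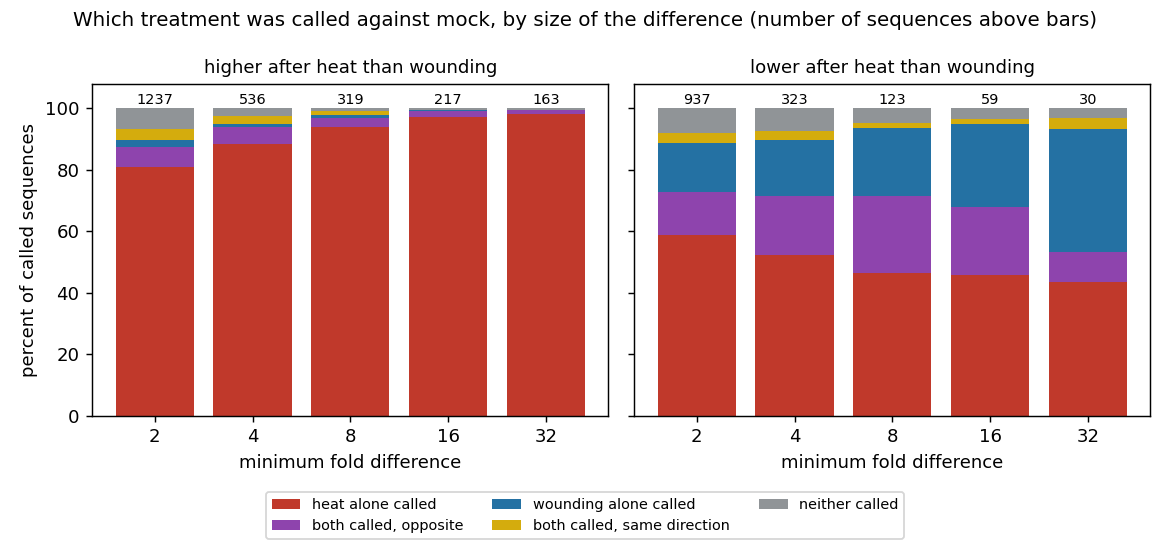
Percent of the sequences called between heat and wounding (y axis) by which treatment was called against mock, for minimum fitted differences of 2-fold to 32-fold (x axis), with the number of sequences above each bar. On the left the share of heat alone runs from 80.9% to 98.2%; on the right it runs from 58.7% to 43.3% while that of wounding alone runs from 16.01% to 40.0%.

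A second measure did not use the calls against mock, but was taken over the same sequences chosen by the direct test. It gave the part of the log2 difference between heat and wounding that lay between heat and mock. It used group means of CPM with a floor of 3 counts per library, and a value of 1 means that mock sat level with wounding, 0 that it sat level with heat. Its median was 0.959 (middle 50% of sequences 0.762 to 1.04) for those at least 2-fold higher after heat and 0.792 (0.417 to 1.06) for those lower. At 8-fold the medians were 1.02 and 0.617, and at 32-fold 1.02 and 0.277. Of the 163 higher sequences at 32-fold, 111 had no mock count and 113 no wound count. Where mock and wounding were both empty they sat at their floors, which fixed the measure just above 1. By this measure, with a heat part of at least 0.75 or at most 0.25, 948 of the 1237 went to heat and 23 to wounding, and 498 of the 937 to heat and 155 to wounding. Mock enters both parts of the difference, so an unusual mock mean shifts this measure by itself.

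The 1237 sequences higher after heat (12.8% of those tested) held more of the reads after heat than after wounding, and the 937 lower (9.71%) held less. Those at least 2-fold higher after heat took 18.8%, 17.6% and 19.0% of the count in heat replicates 1, 2 and 3, 4.30%, 4.47% and 4.16% in the wound replicates and 4.37%, 5.59% and 4.64% in the mock replicates. Mock and wound libraries overlapped, and every heat library was above them. Those at least 2-fold lower after heat took 2.55%, 2.89% and 2.62% in heat, 8.34%, 8.70% and 7.88% in wound and 6.58%, 6.27% and 6.61% in mock libraries, with no overlap among the groups. Within the latter, sequences put down to heat alone made up 4.67% ± 0.137 of wound and 4.65% ± 0.201 of mock libraries (SD, n = 3) against 1.58% ± 0.161 of heat libraries. Those put down to wounding alone made up 1.33% ± 0.104 of wound, 0.568% ± 0.0150 of mock and 0.464% ± 0.0396 of heat libraries. The sequences were chosen by these same counts, so no test is given.

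**Figure D3:**
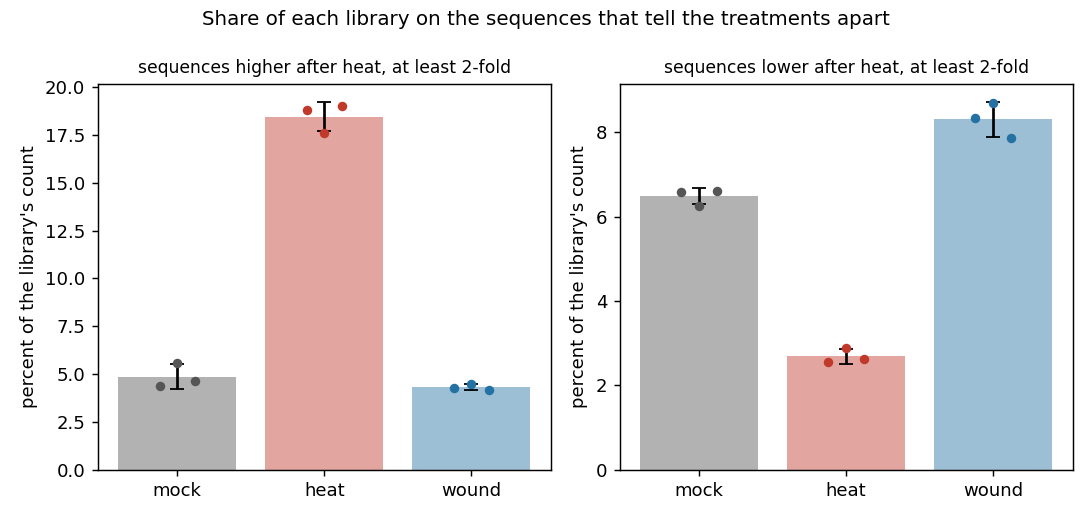
Percent of each library's count (y axis) on the 1237 sequences at least 2-fold higher after heat than after wounding (left) and the 937 lower (right); points are libraries, bars group means and whiskers 1 SD (n = 3). On the left only heat libraries stand apart, at 17.6% to 19.0%; on the right the mock libraries, at 6.27% to 6.61%, lie between heat and wound.

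Among the sequences put down to heat alone, those that rose had a median log2 difference of 1.91 from wounding and 1.87 from mock, and a median level of 28.3 CPM after heat, 7.75 after wounding and 8.61 in mock. Against mock, 900 of the 1001 changed at least 2-fold. The median log2 difference over all tested sequences was -0.02 between the treatments. The contig Niben101Ctg10208 (positions 1 to 1056) had the largest ratio of mean CPM. Heat libraries held 517.8, 646.6 and 533.4 CPM of it, wound libraries 0, 0.406 and 0.263, and mock libraries had no count. The heat libraries stood far above all others, and the wound libraries held only 0, 6 and 4 counts, so their own difference from mock was not called (edgeR adjusted p = 0.0641).

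The scaffold Niben101Scf01475 (1 to 132452) was the other sequence named by that ratio, and here all groups had reads. It held 1332, 1600 and 1348 CPM after heat, 3.44, 1.96 and 2.50 after wounding and 3.22, 4.08 and 3.15 in mock, so mock and wounding overlapped. The log2 difference between heat and wounding was 9.07 ± 0.200 (SE, edgeR adjusted p = 1.4e-10).

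By size in CPM, 3 scaffolds led the rise, all put down to heat alone. Niben101Scf04040 (1 to 1060080) held 3838, 5233 and 4403 CPM after heat, 175.4, 171.7 and 158.8 after wounding and 176.9, 204.7 and 171.1 in mock. Niben101Scf10796 (1 to 178960) held 3887, 3903 and 4024 CPM after heat against 120.4, 161.6 and 131.6 after wounding and 149.2, 87.9 and 104.8 in mock. In both, mock and wound libraries overlapped and heat libraries were more than an order of magnitude above them. Niben101Scf10384 (1 to 365057) held 3289, 4310 and 3601 CPM after heat, 101.0, 112.9 and 96.9 after wounding and 93.4, 63.1 and 78.6 in mock. Its wound libraries all lay above its mock libraries, a difference that was not called (edgeR adjusted p = 0.0947).

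Sequences that heat alone lowered were smaller in their changes. Their median log2 difference was -1.56 from wounding and -1.59 from mock (-1.55 and -1.56 with groups lacking any count taken at the floor), with a median of 2.61 CPM after heat, 8.51 after wounding and 8.49 in mock. The 550 included 489 that fell at least 2-fold against mock. Niben101Scf17540 (1 to 110499) held 11.4, 8.11 and 7.45 CPM after heat, 123.0, 164.5 and 113.0 after wounding and 185.6, 110.4 and 132.2 in mock. Wound and mock overlapped, and heat was lower than wounding by a log2 difference of -3.90 ± 0.238 (SE, edgeR adjusted p = 1.76e-07). Niben101Scf22800 (1 to 67033) held 0.803, 1.38 and 0.545 CPM after heat and 19.8, 16.7 and 18.3 after wounding, within the wide mock range of 10.6 to 27.3.

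The falls with the largest difference in CPM were those of very abundant sequences, again put down to heat alone. Niben101Scf02262 (1 to 423175) held 1973, 2876 and 2300 CPM after heat, 8627, 8224 and 8554 after wounding and 9129, 7102 and 8141 in mock, a log2 difference of -1.83 ± 0.148 between the treatments (SE, edgeR adjusted p = 1.59e-06). The contig Niben101Ctg16374 (1 to 10737) held 747.1, 1468 and 633.3 CPM after heat, 5047, 4705 and 4867 after wounding and 5311, 3838 and 4596 in mock. Niben101Scf13600 (1 to 212268) held 246.7, 528.9 and 279.3 CPM after heat, 2450, 1903 and 2337 after wounding and 2244, 1572 and 2289 in mock. In all 3, wound and mock libraries overlapped and heat replicate 2 was the highest of the heat libraries.

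Wounding alone made the difference mostly by raising sequences. The 150 sequences that wounding raised and that were lower after heat had a median log2 difference from mock of 1.58 after wounding and of -0.11 after heat (-0.10 with groups lacking any count at the floor), and 128 of them rose at least 2-fold. Their median level was 25.5 CPM in wound, 9.18 in mock and 7.51 in heat libraries. Niben101Scf09822 (1 to 217860) held 31.3, 58.2 and 98.5 CPM after wounding, 0.365, 0.765 and 0.182 after heat and 0.129, 0.371 and 0.642 in mock. Heat and mock libraries overlapped at 2 to 11 counts each, and the wound libraries stood above them although replicate 3 was far above replicate 1. The log2 difference between heat and wounding was -7.20 ± 0.550 (SE, edgeR adjusted p = 9.96e-07). Niben101Scf28036 (1 to 26261) held 29.1, 51.6 and 33.4 CPM after wounding, 0.146, 0 and 0.848 after heat and 0.258, 0.0618 and 0.117 in mock.

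The 27 sequences that wounding alone lowered were the smallest of these sets. Their median log2 difference from mock was -1.11 after wounding and 0.37 after heat. The contig Niben101Ctg15836 (1 to 5349) held 7.26, 9.002 and 9.15 CPM after wounding, 77.9, 22.3 and 105.1 after heat and 14.6, 70.2 and 23.9 in mock. Wound libraries were below all others, and heat and mock overlapped widely. Its difference between the treatments was called (log2 3.02 ± 0.615 SE, edgeR adjusted p = 0.00159), while its fall after wounding (adjusted p = 0.0385) was lost in 10 of 20 other settings, among them the omission of mock replicate 2 or 3, heat replicate 1 or any of the wound libraries. Niben101Scf05974 (1 to 145702) held 4.93, 4.06 and 3.29 CPM after wounding, 22.8, 8.64 and 23.8 after heat and 8.58, 15.7 and 9.57 in mock, and its fall after wounding was lost in 8 of 20, among them the omission of mock replicate 2 or any of the wound libraries.

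Heat replicate 2 and mock replicate 2 stood out in this set. The set requires that heat was not called against mock, which a low heat replicate 2 or a high mock replicate 2 makes more likely. The shares below thus follow in part from how the set was chosen. In 23 of the 27 sequences heat replicate 2 was the lowest heat library (37.6% of all tested sequences), and in 18 mock replicate 2 was the highest mock library (40.9% of all); 16 showed both (18.8% of all). The count of 27 became 30 without heat replicate 2, 43 without mock replicate 1, 15 without mock replicate 2, 16 without wound replicate 1 and 12 without wound replicate 2.

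Opposite responses were called for 212 sequences. For the 81 that heat raised and wounding lowered, the median log2 difference from mock was 1.03 after heat and -0.73 after wounding. Niben101Scf24482 (1 to 135573) held 1416, 1371 and 1385 CPM after heat, 28.9 in each of the 3 mock libraries and 13.9, 18.5 and 15.7 after wounding. The groups did not overlap, and the log2 difference was 6.44 ± 0.126 between the treatments (SE, edgeR adjusted p = 7.53e-11), with 5.59 from heat and -0.85 from wounding against mock. Niben101Scf20135 (1 to 160321) held 62.2, 25.02 and 57.4 CPM after heat, 2.64, 7.17 and 5.37 in mock and 1.30, 1.49 and 0.856 after wounding. Its fall after wounding (edgeR adjusted p = 0.0141) was lost in 5 of 20 other settings, among them the omission of wound replicate 1 or 3. The count of 81 became 58 without mock replicate 2, 42 without mock replicate 3, 35 without wound replicate 1, 46 without wound replicate 3, 125 without heat replicate 2 and 50 with a replicate block. Here too heat replicate 2 was the lowest heat library in 51 and mock replicate 2 the highest mock library in 54.

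The 131 sequences that wounding raised and heat lowered had a median log2 difference from mock of 0.95 after wounding and -0.92 after heat (-0.90 with groups lacking any count at the floor). These set medians were about equal in size. Fitted values of single sequences ranged from 0.31 to 6.86 after wounding and from -5.52 to -0.28 after heat, so the medians do not give the parts within a sequence. The scaffold Niben101Scf10847 (1 to 89863) held 89.9, 148.0 and 185.9 CPM after wounding, 1.87, 0.247 and 1.52 in mock and 0, 0.153 and 0.121 after heat. Those heat values are 0, 2 and 2 counts, under the floor, so its fall against mock (edgeR adjusted p = 0.0117) rests on few reads. The contig Niben101Ctg15550 (1 to 4392) had enough reads in every group: 128.3, 226.5 and 156.7 CPM after wounding, then 14.3, 13.5 and 9.81 in mock and 1.02, 1.61 and 0.848 after heat. Its groups did not overlap, with log2 differences from mock of 3.77 ± 0.229 after wounding and -3.45 ± 0.311 after heat (SE, edgeR adjusted p = 2.88e-06 and 4.63e-06). The count of 131 became 80 without mock replicate 3 and 86 without wound replicate 2.

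In 76 sequences both treatments moved the same way and one moved further. Of the 44 that were higher after heat, 43 rose after both treatments and 1 fell after both. Niben101Scf06890 (1 to 244047) held 784.7, 954.9 and 823.1 CPM after heat, 55.6, 61.1 and 52.7 after wounding and 45.5, 40.7 and 41.2 in mock, with no overlap between groups. Its log2 difference from mock was 4.33 ± 0.115 after heat and 0.41 ± 0.103 after wounding (SE, edgeR adjusted p = 3.9e-10 and 0.0208). Niben101Scf02516 (1 to 200713) held 15.2, 17.98 and 27.9 CPM after heat, 1.43, 1.49 and 1.51 after wounding and 0.580, 0.680 and 0.467 in mock. The rise after wounding was lost in 8 of 20 other settings for each scaffold. For Niben101Scf06890 these included the omission of mock replicate 2 or 3 or of wound replicate 1 or 2, and upper-quartile factors; for Niben101Scf02516 they included the omission of mock replicate 1 or 3 or of any wound library. The count of 44 became 24 without mock replicate 3, 28 without wound replicate 1 or 2 and 68 without heat replicate 2.

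Of the 32 that were lower after heat, 17 rose after both treatments, more after wounding, and 15 fell after both, more after heat. Niben101Scf14121 (1 to 65615) held 140.3, 182.1 and 136.2 CPM after wounding, 14.4, 12.3 and 21.7 after heat and 8.90, 8.60 and 8.76 in mock. No groups overlapped, and the log2 difference from mock was 4.13 ± 0.204 after wounding and 0.89 ± 0.198 after heat (SE, edgeR adjusted p = 8.41e-07 and 0.00289). The contig Niben101Ctg12548 (1 to 1574) had no mock count. It held 25.3, 41.6 and 28.9 CPM after wounding and 0, 0.612 and 1.09 after heat, and its rise after heat was lost in 4 of 20 other settings, among them the omission of heat replicate 3. The count of 32 became 18 without mock replicate 3 and 20 without wound replicate 1.

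For 158 sequences the treatments differed although neither was called against mock. These were mostly low: the median level of the 84 that were higher after heat was 3.33 CPM after heat, 1.87 in mock and 1.10 after wounding, and that of the 74 that were lower was 0.660, 1.18 and 2.27. The contig Niben101Ctg05173 (1 to 653) held 1.24, 3.37 and 0.242 CPM after heat, 15.5, 2.54 and 2.69 in mock and 16.1, 38.9 and 36.1 after wounding, so that mock overlapped heat and lay below wounding. Niben101Scf27717 (1 to 30357) held 18.5, 7.11 and 35.4 CPM after heat, 23.5, 23.9 and 31.9 in mock and 104.0, 49.5 and 36.9 after wounding. In the other direction Niben101Scf12498 (1 to 177877) held 18.7, 12.2 and 8.12 CPM after heat, 4.06, 17.9 and 8.99 in mock and 4.67, 5.08 and 3.62 after wounding. Niben101Scf08159 (1 to 102166) held 13.2, 6.58 and 18.5 after heat, 4.90, 14.3 and 8.23 in mock and 4.41, 5.75 and 3.95 after wounding. In these 2 scaffolds mock overlapped both treatments. The direct call was lost for Niben101Scf27717 in 5 of 21 other settings (log2 range over them all -2.29 to -1.08). Among them were the omission of heat replicate 1 or wound replicate 1. For Niben101Scf12498 it was lost in 5 of 21, among them the omission of heat replicate 1 or wound replicate 3. For Niben101Scf08159 it was lost in 4 of 21, among them the omission of heat replicate 3. Each of these direct calls was also lost at an adjusted p under 0.01 and with limma on TPM at either pseudocount. Without mock replicate 1 or 3 the 84 became 131 and 132, and without mock replicate 1, 2 or 3 the 74 became 133, 123 and 153.

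**Figure D4:**
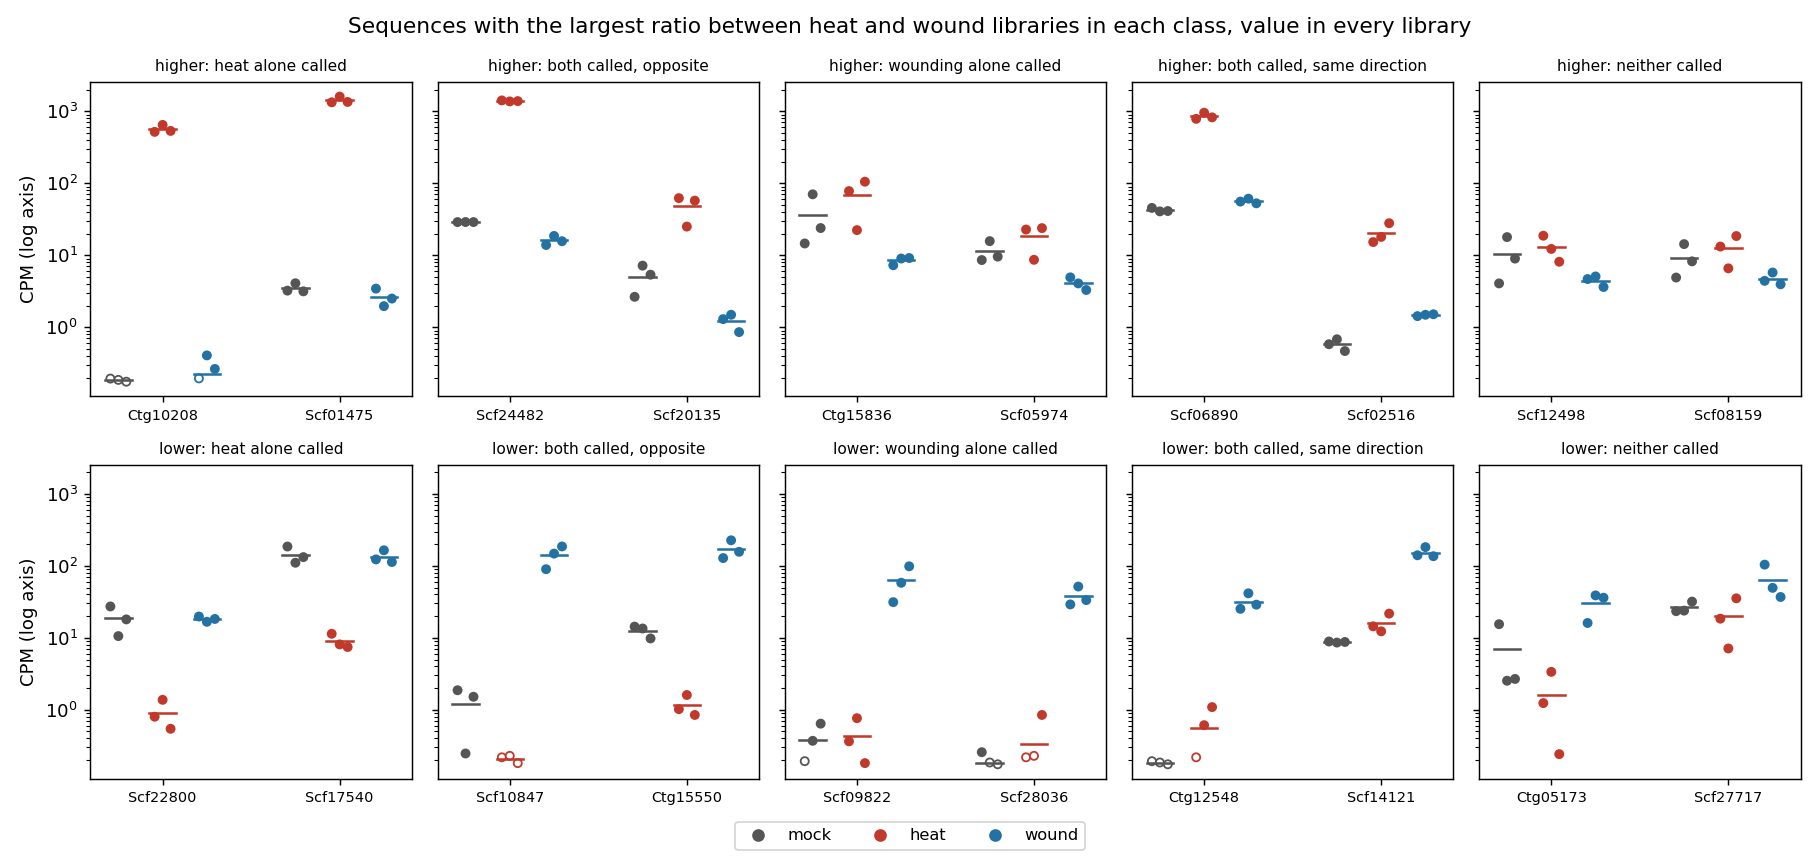
CPM (log axis) in each of the 9 libraries for the 2 sequences per set with the largest ratio between heat and wounding (names without their Niben101 prefix); points are libraries, lines group means, and open points are values under the floor of 3 counts, drawn at the floor. In the heat alone sets mock lies with wounding, in the wounding alone sets it lies with heat, and in the opposite sets it lies between them.

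Sequences seen after only 1 of the treatments were mostly seen after heat. No read in any wound library but at least 10 counts in every heat library was found for 115 of all 56094 sequences. Of these, 112 were among the 9645 tested. No mock count either was found for 98 of the 115, and 17 had at most 13 in a mock library. The set thus consists mostly of sequences silent in mock, which wounding could not have lowered. They held 581 ± 42.0 CPM in sum (SD, n = 3) after heat, and 87 were shorter than 2000 nt. The reverse, at least 10 counts in every wound library and none after heat, was found for 9 of the 56094, all tested, holding 16.6 ± 4.21 CPM. Of these 9, 4 had no mock count and 5 had at most 8 in a mock library. No sequence had at least 10 counts in every mock and every wound library and none after heat, nor at least 10 in every mock and heat library and none after wounding. A count of 0 allows up to 3 counts in a library, or 0.182 to 0.229 CPM in heat and 0.195 to 0.203 CPM in wound libraries. These floors cover counting error only, not the spread between replicates.

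The balance of directions differed between length classes. Under 2000 nt, 19.6% of 1243 tested sequences were at least 2-fold higher after heat and 13.1% lower. From 2000 nt to under 20000 nt the order turned, with 12.7% of 771 higher and 17.5% lower, and heat alone was called for 72.6% of those lower. At 200000 nt or more, 10.4% of 4724 were higher and 6.20% lower, and heat alone was called for 49.8% of those lower. Contigs had 12.8% of 1370 higher and 15.9% lower, scaffolds 12.8% of 8275 higher and 8.69% lower. Sequences under 2000 nt had a median level of 1.65 CPM and a median SE of 0.471 for the log2 difference, those of 200000 nt or more 66.7 CPM and 0.121. The longest sequences were thus called at any size most often (56.6%, against 37.9% under 2000 nt) while reaching 2-fold least often. Of the 115 sequences with at least 10 counts in every heat library and no wound count, 87 were under 2000 nt. No mock count either was found for 98 of the 115. Those 98 could pass the low-count filter only through heat libraries and could only be called higher, which adds to the excess of higher calls under 2000 nt. Of the 9 sequences in the reverse set, 6 were under 2000 nt.

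By level, taken as the mean CPM over the 9 libraries, the excess of higher over lower calls was widest among abundant sequences. The heat libraries enter that mean. A rise after heat thus moves a sequence towards a higher class and a fall towards a lower one, so part of this pattern follows from how the classes were made. At a mean of 100 CPM or more, 239 of 2003 (11.9%) were at least 2-fold higher after heat and 112 (5.59%) lower. Under 1 CPM these were 130 of 740 (17.6%) and 113 (15.3%). Heat alone was called for 85.4% of the higher ones under 1 CPM and for 82.4% at 100 CPM or more, while among the lower ones its share was 61.9% and 47.3%.

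**Figure D5:**
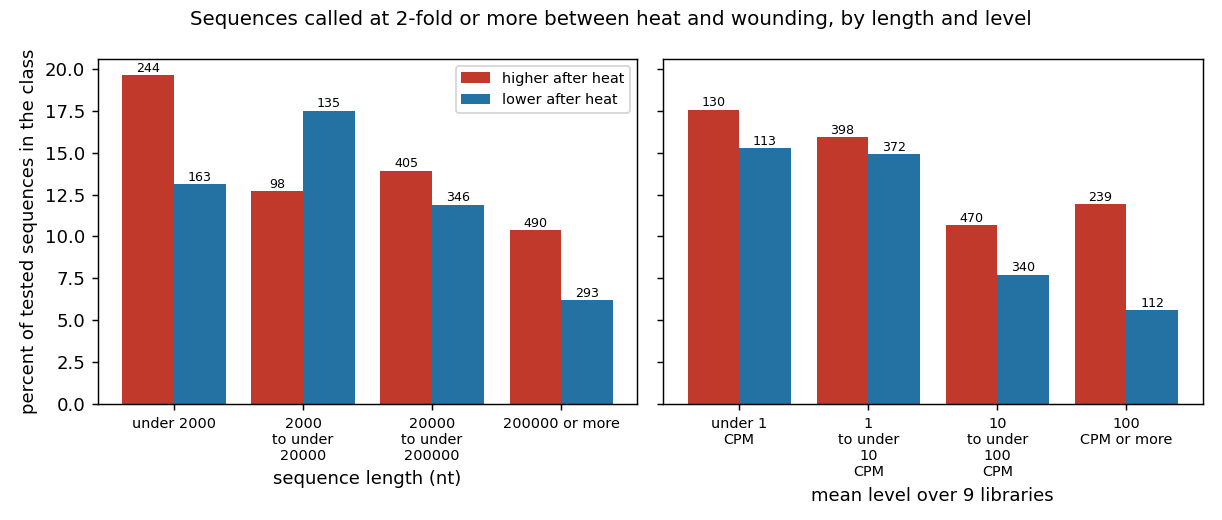
Percent of tested sequences (y axis) called at least 2-fold higher (red) or lower (blue) after heat than after wounding, by sequence length and by mean CPM over the 9 libraries, with the number of sequences above each bar. Among these classes, only from 2000 nt to under 20000 nt were more sequences lower (135) than higher (98).

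Library-wide shares of the count also differed. Contigs held 3.26%, 3.56% and 3.43% of the count in heat libraries and 4.49%, 4.38% and 4.67% in wound libraries, with mock at 3.90% to 4.63%. Sequences of 2000 nt to under 20000 nt held 1.54%, 1.64% and 1.49% after heat and 2.33%, 2.30% and 2.28% after wounding, with mock at 2.23% to 2.37%. The contig Niben101Ctg16374 (1 to 10737) belongs to both classes. It averaged 949 CPM in heat, 4873 in wound and 4582 in mock libraries and made a large part of both gaps, so they do not show a shift of whole classes. The 10 sequences with the most counts took 8.88% ± 0.705 of heat and 11.6% ± 0.497 of wound libraries (SD, n = 3), with mock at 11.2% ± 1.05. In each of these 3 shares heat and wounding did not overlap, and mock overlapped wounding. Heat and wounding did not overlap either under 2000 nt (2.50% and 2.93% on average, mock 2.39% to 2.94%) or for the 100 sequences with most counts (31.3% and 36.1%, mock 33.7% to 39.3%). From 20000 nt to under 200000 nt heat was higher (17.6% against 16.8%), and mock (16.96% to 17.01%) lay above wounding. For each share given here the two-sided exact permutation p was 0.1, the smallest that 3 against 3 can give, and 0.133 after Benjamini-Hochberg adjustment over 8 such measures. The number of sequences with a count did not separate the treatments (11713 to 11921 after heat, 11660 to 11800 after wounding, exact permutation p = 0.2).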

How the data were processed

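RNA counts of 9 leaf libraries (3 mock, 3 heat, 3 wound) came from 1 deposited table. Per the file headers it gives total counts, RPKM, TPM and a column headed CPM for each library. The deposited counts are whole numbers per scaffold or contig. The deposited RPKM values equal the count per length and library total, and the deposited TPM values sum to 1000000 per library. The columns the authors headed CPM hold a scaled signal, the count divided by 1 constant per library, with sums of 909725.7 to 1068742.4. For aligner, counter, strand handling and genome build, nothing is stated in the sources used here, and the labels name no batch. All 9 libraries were grouped by title.

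Counts were filtered with filterByExpr, scaled by TMM and fitted as 1 quasi-likelihood model of 3 groups in edgeR 4.0.16 (R 4.3.3), tested on simulated data. P-values were Benjamini-Hochberg adjusted over the 9645 tested sequences (threshold 0.05), and SE is the log2 fold change over the square root of F. Precision follows depth: the median SE between heat and wounding was 0.163. Alternatives used DESeq2 1.42.0, limma 3.58.1, other scalings and filters, a replicate block, and omission of each library. Named were, per direction, the 2 sequences per set with the largest ratio of mean CPM (floor of 3 counts per library) and the 3 with the largest CPM difference. They had to be called at 2-fold, with heat and wound libraries separated and at least 10 CPM in the higher group. The contrast, the sets and this rule were chosen with earlier results of these data known. Gene lists could not be applied. Replicate numbers were not used to pair the samples in the main fit.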

Additional observations from a re-analysis of the deposited data

How the results depend on the processing

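No call of a named sequence changed direction, and none of the 2174 sequences was called at 2-fold the opposite way under the other fits. Of 292 recomputed counts, 232 stayed within 1.5 times. Of 56 calls of named sequences, 46 were kept in every setting that tested them. The counts that moved follow, for sequences higher and then lower after heat. The filter of at least 10 CPM in 3 libraries, which tests fewer sequences, left 765 and 534 at 2-fold, with heat alone for 608 and 269, wounding alone for 94 of the lower, and neither for 11 and 3. Testing against 2-fold left 787 and 416. Without a filter both treatments were called in opposite directions for 175 and 202 and in the same direction for 80 and 62. DESeq2 gave 133 opposite calls among the higher. An adjusted p under 0.01 left wounding alone for 12 of the higher, opposite calls for 23 and 60, same-direction calls for 16 and 12, and neither for 117 of the lower. Limma on log2(TPM + 1) gave 1500 lower at any size and 517 lower at 2-fold, wounding alone for 14 and 90, opposite calls for 17 and 37, the same direction for 5 and 14, and heat alone for 315 of the lower. With a pseudocount of 0.1 it gave 1512 lower at any size, opposite calls for 21 and 46, the same direction for 11 and 15, neither for 184 of the higher and wounding alone for 95 of the lower. Dividing by parts of the log2 difference put 266 and 284 between the treatments. Beyond thresholds and filters, which remove calls by construction, the cause was not tested. With each library omitted in turn, the counts were 12 to 43 for wounding alone among the higher, 35 to 125 and 80 to 155 for opposite calls, 24 to 68 and 18 to 39 for the same direction, and 81 to 132 and 84 to 153 for neither. Heat alone stayed at 974 to 1118 and 451 to 549. With the replicate block, opposite calls among the higher numbered 50 against 81 and no other count moved by over 1.5 times. The numbers share only a number: same-numbered libraries deviated with correlations of -0.224 to 0.192, and 3 of 9 libraries correlated best with their own number. Differences in sequences under 1 CPM, with a median SE of 0.692, were often not detectable at this depth.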

Other observations

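Heat libraries scattered more than wound libraries: among 6407 sequences averaging 10 CPM or more, the median SD of log2(CPM + 1) over 3 libraries was 0.143 after heat, 0.129 in mock and 0.114 after wounding. Among the 550 sequences that heat alone lowered, heat replicate 2 was the lowest heat library in 120 (21.8%, against 37.6% of all tested sequences), whereas among the 1001 that heat alone raised it was the lowest in 487 (48.7%). No explanation was tested.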
